A study of Mus musculus with 10 samples.

Results

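Transcription factors that mark the hepatic stellate cell (HSC) lineage were followed in bulk RNA sequencing of HSCs sorted from mouse liver. They are 10 genes, *Lhx2*, *Hand2*, *Gata4*, *Gata6*, *Wt1*, *Tcf21*, *Foxf1*, *Prrx1*, *Ets1* and *Meis1*, taken by gene symbol from the 25233 genes with a symbol in the deposited table. All 10 were among the 14630 genes tested, which reached 10 normalized counts in 5 or more libraries. The comparison was between hypertrophied, lipid-laden HSCs (hypHSCs) and quiescent HSCs (qHSCs), with 5 libraries of each, and it asked how the expression profile of the hypHSCs differs from that of the qHSCs. The hypHSCs came from C57BL/6J mice fed a choline-deficient, methionine-poor high-fat diet (CDAHFD), which produces steatohepatitis and fibrosis. The diet lasted 13 weeks in hypHSC 1 and 2, from mice aged 19 weeks, and 12 weeks in hypHSC 3, 4 and 5, from mice aged 18 weeks. The qHSCs came from C57BL/6J mice on the standard diet, aged 36 weeks for qHSC 1, 2 and 5 and 34 weeks for qHSC 3 and 4, and the study's methods describe male mice for both diets. The hypHSCs were sorted on green and the qHSCs on blue autofluorescence after digestions of different strength, so the effects of diet, age, digestion and gate cannot be told apart. Only preparations with sufficient RNA quality were sequenced, the mouse behind each library is not given in the sources used here, and n counts preparations. The p-values therefore measure the spread between these preparations, which may be technical in part.

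A cell lineage is held by a small set of transcription factors that often bind each other's genes as well as those of the differentiated cell. Stellate cells descend from the mesothelium and the septum transversum of the embryo, where *Wt1*, *Tcf21*, *Hand2*, *Gata4*, *Lhx2* and *Foxf1* are active. In the mouse, loss of *Lhx2* is known to lead to activated stellate cells and a fibrotic liver, and *Gata4* is known to restrain the same activation. *Prrx1*, in contrast, is a factor of mesenchymal cells in growth and repair, *Ets1* is shared with endothelial and lymphoid cells, and *Meis1* belongs to the homeodomain proteins that pair with the Pbx family.

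Sequence is shown for the promoters of factors whose expression is described below, because several factors of the set have known binding letters that can be looked for in each other's promoters. The promoter table used, from RefSeq on GRCm38.p6, held 5 of the 10 factors (*Lhx2*, *Hand2*, *Tcf21*, *Prrx1* and *Meis1*) and *Fendrr*, the divergent noncoding neighbour of *Foxf1*. Each line gives the 250 bases before the first transcribed base, 5′ to 3′ on the strand of the gene. *Hand2* lies at chr8:57320733-57320982 on the plus strand, *Tcf21* at chr10:22820144-22820393 on the minus strand, *Fendrr* at chr8:121083111-121083360 on the minus strand, *Prrx1* at chr1:163313651-163313900 on the minus strand and *Lhx2*, the first of 2 windows, at chr2:38339031-38339280 on the plus strand. Capitals mark the exact letters searched, listed below, for a GATA factor, a LIM homeodomain factor, an E-box or a forkhead factor. Other variants of these letters were not searched and are not marked.
*Hand2*: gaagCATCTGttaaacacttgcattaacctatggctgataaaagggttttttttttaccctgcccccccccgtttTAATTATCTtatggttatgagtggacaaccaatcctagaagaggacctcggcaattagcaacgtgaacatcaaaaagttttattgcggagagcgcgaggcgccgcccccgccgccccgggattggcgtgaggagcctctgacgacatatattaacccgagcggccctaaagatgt
*Tcf21*: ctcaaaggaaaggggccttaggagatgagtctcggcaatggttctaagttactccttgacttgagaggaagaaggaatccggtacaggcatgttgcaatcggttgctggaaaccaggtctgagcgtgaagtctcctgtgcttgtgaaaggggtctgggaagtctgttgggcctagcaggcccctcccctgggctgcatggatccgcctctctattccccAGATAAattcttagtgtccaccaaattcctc
*Fendrr*: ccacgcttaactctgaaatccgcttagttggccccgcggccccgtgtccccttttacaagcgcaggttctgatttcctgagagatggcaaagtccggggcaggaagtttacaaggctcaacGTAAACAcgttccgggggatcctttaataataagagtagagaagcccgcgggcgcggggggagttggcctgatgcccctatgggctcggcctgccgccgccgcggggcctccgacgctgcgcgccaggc
*Prrx1*: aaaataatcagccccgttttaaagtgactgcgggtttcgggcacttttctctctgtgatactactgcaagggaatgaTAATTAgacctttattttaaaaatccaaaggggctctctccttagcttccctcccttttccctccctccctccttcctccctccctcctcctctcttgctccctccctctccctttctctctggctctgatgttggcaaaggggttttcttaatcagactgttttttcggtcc
*Lhx2*: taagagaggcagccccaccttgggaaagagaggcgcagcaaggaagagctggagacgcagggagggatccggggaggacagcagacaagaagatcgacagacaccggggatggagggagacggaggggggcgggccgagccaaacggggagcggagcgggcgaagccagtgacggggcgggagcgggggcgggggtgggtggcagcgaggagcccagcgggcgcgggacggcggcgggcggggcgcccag

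The motifs searched on both strands were AGATAA for GATA factors, TAATTA for LIM homeodomain factors, CATCTG for the E-box, CCGGAAG for Ets factors, TGTTTAC for forkhead factors, TGACAG for Meis factors, GTGGGNG for Wt1, TATAAA for the TATA box and GGGCGG for the GC box. The *Hand2* window held CATCTG 246 bases before the start, TAATTA 175 bases before it, and, overlapping the latter, the reverse complement of the GATA letters 172 bases before it. The *Tcf21* window held AGATAA 31 bases before the start, that of *Fendrr* the reverse complement of TGTTTAC 129 bases before it, and that of *Prrx1* a TAATTA 173 bases before it. The *Lhx2* window had none of these, a GC content of 72.8% and GGGCGG at 4 places, and that of *Hand2* held GGGCGG at 2 places on the other strand. The *Meis1* window, which is not shown, held the reverse complement of CCGGAAG 12 bases before the start. Of all 32851 promoter windows of this length, 9.99% held AGATAA, 4.84% TAATTA, 14.4% CATCTG, 3.17% TGTTTAC, 6.91% CCGGAAG and 32.7% GGGCGG. The Wt1 letters occurred in 28.1% of windows, those of Meis in 15.9% and the TATA box in 12.4%, the first of them once in each *Lhx2* window and once in that of *Meis1*. These matches describe the letters only.

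Reads on genes with a symbol numbered 30534719 to 43283589 in the hypHSC libraries and 35640104 to 47317028 in the qHSC libraries. Values are normalized counts, the reads of a gene divided by the DESeq2 size factor of the library, and 3 reads, the floor of detection, equalled 2.49 to 4.54 normalized counts in hypHSCs and 2.25 to 2.72 in qHSCs. The stellate label was checked against 16 markers of quiescent HSCs (*Lrat*, *Des*, *Dcn* and others), which summed to between 1429280 and 2354350 normalized counts in the qHSC libraries and to between 34502 and 68238 in the hypHSC libraries. All 16 were lower in hypHSCs, with a median log2 fold change of -6.39. *Hhip* and *Vipr1* among them passed the filter only through the qHSC libraries, so their direction was fixed. The 12 macrophage markers were higher in hypHSCs in 12 of 12, and their sum ranged from 1166610 to 1637370 in hypHSCs against 6004 to 126509 in qHSCs. The groups overlapped for *Csf1r*, *Adgre1*, *C1qa* and *C1qb* among them. By the rule given below, 21.7% of all tested genes were lower and 17.8% higher in hypHSCs. Mitochondrial reads took 2.21% to 12.8% of hypHSC libraries and 1.25% to 1.61% of qHSC libraries. The part of these differences in the values of the lineage factors was not tested.

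Of the 10 lineage factors, 8 were lower in hypHSCs, 1 was higher (*Prrx1*) and 1 was not differentially expressed (*Wt1*). Values were compared by limma on log2(normalized count + 1), and a gene counted as differentially expressed (DEG) if its log2 fold change reached 1 in either direction with an adjusted p (Benjamini-Hochberg over all genes tested) not above 0.05. Of all tested genes, 39.5% were DEGs by this rule, 21.7% lower and 17.8% higher in hypHSCs. The median log2 fold change was -3.86 over the 10 factors and -0.20 over all tested genes. The groups did not overlap for 9 of the 10 factors, 8 with every hypHSC library below every qHSC library, where 39.5% of all tested genes did not overlap, 22% on the lower and 17.6% on the higher side. In libraries of sorted cells, fewer cells of a type and less RNA per cell cannot be told apart.

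**Figure D1:**
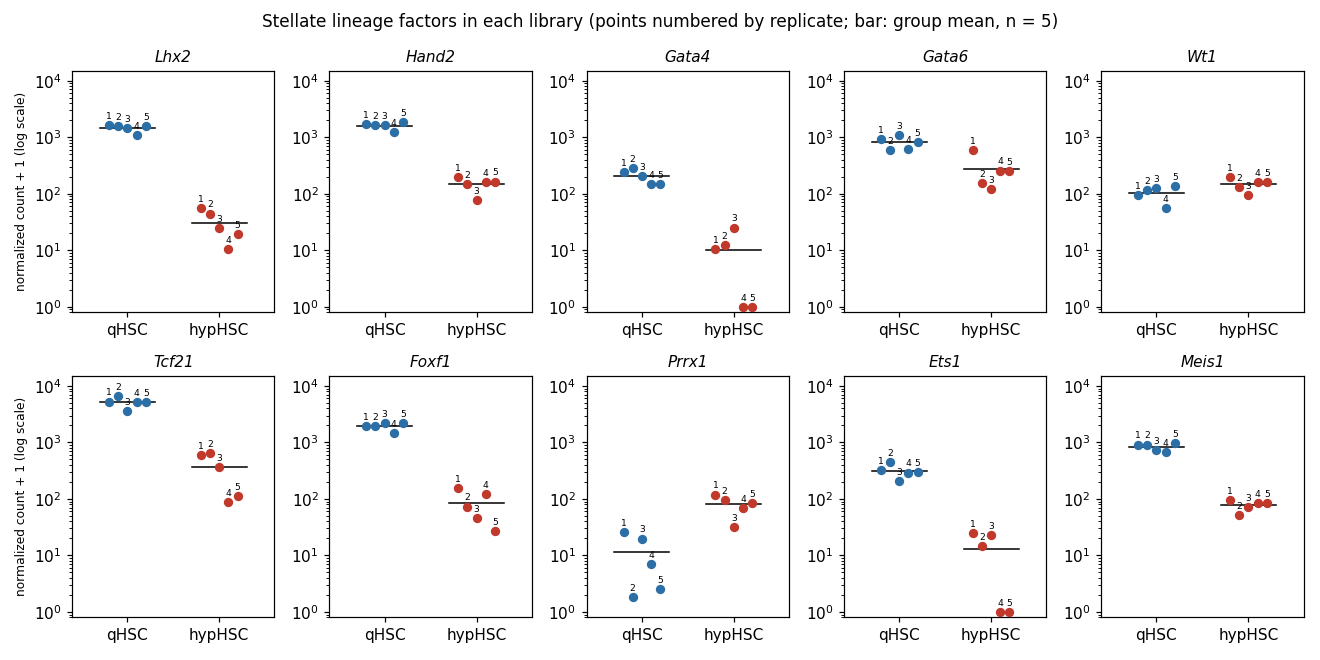
Normalized count + 1 (log axis) of the 10 lineage factors in each library, numbered by replicate, with a bar at the group mean (n = 5). The hypHSC points lie below all qHSC points in 8 panels, overlap them in the *Wt1* panel and lie above them in the *Prrx1* panel.

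*Lhx2*, a LIM homeodomain factor (chromosome 2, 38229293 to 38259749 on GRCm39), showed the largest fitted fall of the 10, although those of *Ets1* and *Gata4* were within their standard errors of it and the order of the 3 changed with the added count. The qHSC libraries 1 to 5 held 1611, 1578, 1467, 1103 and 1578 normalized counts of it, and the hypHSC libraries 1 to 5 held 53.9, 43.5, 23.3, 9.44 and 18.2. Every hypHSC library lay far below every qHSC library, and the lowest, hypHSC 4, still held 9 reads. Its mean fell from 1467 ± 211 to 29.65 ± 18.4 (SD, n = 5), that is 49.5-fold. Its fitted log2 fold change stood at -5.81 (standard error, SE, 0.43, limma adjusted p = 1.59e-06). By the size of its log2 fold change it was at place 172 of the 3177 genes that fell.

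*Meis1*, a homeodomain factor of the three-amino-acid-loop class (chromosome 11, 18830428 to 18968972), fell by a nearly even amount in each library. Its qHSC libraries held 915, 916, 742, 673 and 970.3 normalized counts and its hypHSC libraries 94.3, 51.8, 69.85, 82.9 and 84.7. The hypHSC values stayed within a narrow band with no library at the floor. Its mean went from 843 ± 128 to 76.7 ± 16.4, a log2 fold change of -3.46 (SE 0.24, limma adjusted p = 1.16e-06). Other annotated genes cover 25.9% of its exon bases, and in libraries without strand their reads cannot be told apart from those of *Meis1*.

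*Prrx1*, a paired-type homeodomain factor (chromosome 1, 163072689 to 163141240), was the only factor of the 10 that rose. The hypHSC libraries held 119, 93.2, 30.8, 68.2 and 83.2 normalized counts of it, and the qHSC libraries 25.3, 0.85, 18.9, 5.99 and 1.5. All hypHSC libraries were above all qHSC libraries, although hypHSC 3 was close to qHSC 1. In 2 qHSC libraries it was at the floor of 3 reads. Its mean was 78.8 ± 32.5 in hypHSCs and 10.5 ± 11.01 in qHSCs, 7.49-fold higher, with a log2 fold change of 3.38 (SE 0.80, limma adjusted p = 0.00495). The log2 fold change lay between 2.55, with the libraries scaled on 3 reference genes, and 3.86, without qHSC 1, over 24 alternatives.

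The 2 basic helix-loop-helix factors both fell. *Tcf21* (chromosome 10, 22693171 to 22696074), a factor of visceral mesenchyme, held 5289, 6745, 3620, 5189.7 and 5267 normalized counts in qHSCs. In hypHSCs it held 598, 644, 365, 88.1 and 113, so that hypHSC 4 and 5 were well below the other 3 libraries. The mean went from 5222 ± 1106 to 362 ± 261, 14.4-fold, with a log2 fold change of -4.24 (SE 0.54, limma adjusted p = 7.42e-05). *Tcf21* nevertheless remained the factor with the highest mean normalized count of the 10 in both groups.

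*Hand2* (chromosome 8, 57774015 to 57777552), known for its part in the heart, the limb and the mesenchyme of the liver, fell without such a spread between hypHSC libraries. The qHSC libraries held 1693, 1619.7, 1616, 1241 and 1857 normalized counts and the hypHSC libraries 199, 146, 76.5, 162 and 163. Its mean went from 1605 ± 226 to 149 ± 45.2, 10.7-fold, with a log2 fold change of -3.47 (SE 0.26, limma adjusted p = 2.06e-06). Noncoding genes on the other strand cover 28.3% of the exon bases of *Hand2* and 18.5% of those of *Tcf21*, and their reads cannot be told apart here.

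The zinc finger factors *Gata4* and *Gata6* bind the same letters. *Gata4* (chromosome 14, 63436363 to 63509141) held 243, 285, 205, 147 and 145 normalized counts in qHSCs and 9.43, 11.4, 24.1, 0 and 0 in hypHSCs. It was low in hypHSC 1, 2 and 3 and without a read in hypHSC 4 and 5, which at this depth allows up to 3.15 normalized counts in hypHSC 4 and 4.54 in hypHSC 5. The log2 fold change was -5.30 (SE 0.91, limma adjusted p = 0.00064), from a mean of 205 ± 60.6 to 8.99 ± 9.96, 22.8-fold. With libraries at 0 its size depended on the added count, -5.73 with 0.5 and -4.19 with 5, and DESeq2 on the recovered reads gave -4.44.

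*Gata6* (chromosome 18, 11052510 to 11085635) showed the smallest change of the 8 that fell. Its qHSC libraries held 924, 597, 1095, 607 and 808 normalized counts and its hypHSC libraries 589, 151, 119.75, 256 and 254. A single library, hypHSC 1, came within reach of the lowest qHSC library, qHSC 2. The mean went from 806 ± 213 to 274 ± 186, 2.94-fold, with a log2 fold change of -1.74 (SE 0.40, limma adjusted p = 0.00388). Within each library, the log2 ratio of *Gata4* to *Gata6*, which does not depend on how libraries are scaled other than through the added count, averaged -1.98 in qHSCs and -5.54 in hypHSCs, a difference of -3.56 (exact two-sided permutation test, p = 0.0238). Leaving out qHSC 1, 2 or 4 took that p to 0.0635, 0.0714 and 0.0556 by the same exact test, with differences from -3.58 to -3.33. Because 2 hypHSC libraries had no read of *Gata4*, the difference itself moved with the added count, to -3.99 with 0.5 and -2.47 with 5.

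*Foxf1* (chromosome 8, 121811100 to 121814893), a forkhead factor of the mesenchyme around gut, lung and liver, held 1939.6, 1957, 2169.8, 1445 and 2232 normalized counts in qHSCs. In hypHSCs it held 155, 72.5, 44.9, 119.6 and 25.7, with hypHSC 5 the lowest. The mean fell from 1949 ± 309 to 83.5 ± 53.3, 23.3-fold, with a log2 fold change of -4.78 (SE 0.43, limma adjusted p = 7.19e-06).

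*Ets1* (chromosome 9, 32547517 to 32669116), the founding member of the Ets family, followed the pattern of *Gata4*. Its qHSC libraries held 327, 452, 209, 293 and 299.7 normalized counts, against 24.3, 13.5, 21.6, 0 and 0 in the hypHSC libraries. No read of it was found in hypHSC 4 and 5, and the other 3 libraries were far below the lowest qHSC library. The mean went from 316 ± 87.9 to 11.9 ± 11.5, a log2 fold change of -5.66 (SE 0.97, limma adjusted p = 0.00064). As for *Gata4*, this size depended on the added count, at -6.08 with 0.5 and -4.59 with 5, and DESeq2 gave -4.69, so that *Foxf1*, at -4.69 with 5 added, passed *Ets1* and *Gata4* on that scale.

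*Wt1* (chromosome 2, 104956874 to 105003959), the Wilms tumour zinc finger factor of the mesothelium and of mesenchyme derived from it, was the factor whose groups overlapped. The hypHSC libraries held 194, 128, 93.1, 163 and 160.3 normalized counts and the qHSC libraries 93.2, 114, 123, 54.8 and 134. The lowest hypHSC library was below 4 of the 5 qHSC libraries. Its means of 148 ± 38.3 in hypHSCs and 104 ± 31.2 in qHSCs gave a log2 fold change of 0.53 (SE 0.35, limma adjusted p = 0.233), and an exact two-sided permutation test gave p = 0.111. Scaling the libraries on 3 reference genes (*Hprt*, *Pgk1* and *Actb*) turned the value to -0.40. Beside it, 9 mesothelial markers summed to between 1847 and 7776 normalized counts in hypHSCs, highest in hypHSC 1, and to between 188 and 316 in qHSCs, but *Krt18*, a keratin of epithelia in general, made up 63.9% to 86.3% of the sum in hypHSCs. Of the 4 that passed the filter, all higher in hypHSCs, *Gpm6a* and *Krt19* passed it through the hypHSC libraries, so their direction was fixed, and *Krt19* is also in the cholangiocyte list. The defining marker *Msln* held 0 to 88.9 normalized counts in hypHSCs and 0 to 1.70 in qHSCs. *Muc16* was at 0 in 4 hypHSC libraries, *Rspo1* and *Upk1b* in 3 and *Upk3b* in 2. The part of mesothelial RNA in the value of *Wt1* was not tested.

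**Figure D2:**
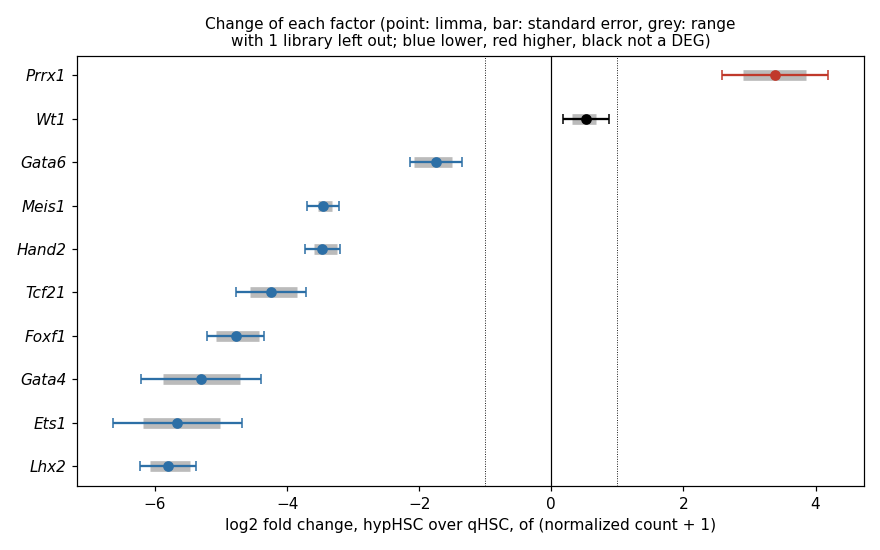
Log2 fold change of each factor, hypHSC over qHSC, on the scale of log2(normalized count + 1) from limma, with bars of 1 standard error and grey bands for the range with 1 library left out in turn. *Lhx2* (-5.81), *Ets1* (-5.66) and *Gata4* (-5.30) lie farthest to the left with an added count of 1, *Gata6* (-1.74) nearest to the dotted threshold of -1, and only *Prrx1* (3.38) lies beyond the threshold of 1.

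The hypHSC libraries did not fall to the same extent for each factor. For *Hand2* and *Meis1*, hypHSC 4 and 5 lay among the other hypHSC libraries, while for *Lhx2*, *Tcf21*, *Gata4* and *Ets1* they were the lowest. The marker lists did not share 1 such division. Of the 16 quiescent HSC markers, hypHSC 4 and 5 were both below hypHSC 1, 2 and 3 for 6, among them *Des* (35.7 and 27.2 normalized counts against 121 to 294), both above them for 1, *Lrat* (2312 and 1936 against 476 to 1873), and neither for 9. Of the 12 macrophage markers they were both below for 5, among them *Csf1r* (5275 and 1833 against 14052 to 24497), and both above for 2, *Cd68* and *Ptprc*. The diet lasted 12 weeks in hypHSC 3, 4 and 5 and 13 weeks in hypHSC 1 and 2, and the part of its duration in this division was not tested. With hypHSC 1, 2 and 3 alone, a choice made after the values were seen, the log2 fold change was -3.75 for *Gata4*, -3.93 for *Ets1* and -3.30 for *Tcf21*, and the same 8 factors were lower and 1 higher. In qHSCs, library 4 was the lowest for *Lhx2*, *Hand2*, *Foxf1*, *Meis1* and *Wt1*, and it had the highest sum of macrophage markers of the 5 (126509). A relation between these was not tested.

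Levels of different genes were compared per length, as FPKM (reads scaled for the exon length of the gene and for the reads on genes with a symbol) recomputed from the recovered reads. In qHSCs the mean FPKM was highest for *Tcf21* (58.3 ± 11.4), followed by *Foxf1* (24.1 ± 3.86), *Hand2* (20.7 ± 2.62) and *Lhx2* (8.47 ± 1.21). Then came *Gata6* at an FPKM of 2.69, *Meis1* at 2.27, *Ets1* at 1.13, *Gata4* at 1.11, *Wt1* at 0.491 and *Prrx1* at 0.0200. The ranges of the 5 qHSC libraries overlapped between *Foxf1* and *Hand2*, between *Gata6* and *Meis1* and between *Ets1* and *Gata4*, so the order within these pairs is not settled, and the other neighbours did not overlap. Of 22963 genes ranked by mean FPKM in qHSCs, *Tcf21* was at place 647, *Foxf1* at 1403, *Hand2* at 1583 and *Lhx2* at 2937.

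In hypHSCs the order was compressed. *Tcf21* was still first with a mean FPKM of 3.29 ± 2.40, followed by *Hand2* (1.49), *Foxf1* (0.811), *Gata6* (0.702) and *Wt1* (0.541). *Meis1* (0.162), *Lhx2* (0.137), *Prrx1* (0.112), *Gata4* (0.0414) and *Ets1* (0.0358) formed a lower group. Every neighbour in this order overlapped with the next except *Wt1* and *Meis1*. *Lhx2* went from the fourth place among the 10 factors in qHSCs to the seventh in hypHSCs, and *Wt1* from the ninth to the fifth. Among all ranked genes, *Tcf21* was at place 4461 and *Lhx2* at 13031 in hypHSCs.

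A long noncoding RNA is transcribed away from the start of several of these factors, and the 3 tested all fell with the factor beside them. By the same rule 21.7% of all tested genes were lower. *Hand2os1* lies on the opposite strand with 120 bases between it and *Hand2* in the deposited table. It held 6006, 6926, 8650.06, 6205 and 8775 normalized counts in qHSCs and 674, 458, 316, 289.55 and 667 in hypHSCs. Its log2 fold change was -3.99 (SE 0.27, limma adjusted p = 7.45e-07), and the groups were far apart. In the RefSeq promoter set, a stretch of 123 bases lies between the first bases of *Hand2* and *Hand2os1*, so that their windows, extended by the 50 bases after each start, share 223 bases, among them most of the *Hand2* sequence shown above.

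*Fendrr*, known as the noncoding neighbour of *Foxf1*, lies on the opposite strand with 1250 bases between. It held 1921.5, 2372, 2082, 2218 and 2763 normalized counts in qHSCs and 49.9, 27.95, 30.8, 23.1 and 10.6 in hypHSCs. With a log2 fold change of -6.41 (SE 0.36, limma adjusted p = 2.59e-07) it had a larger fitted change than *Foxf1*, a difference that was not tested. *Gata6os* went from 156, 276, 264, 268 and 211 in qHSCs to 51.2, 4.14, 9.15, 5.25 and 48.4 in hypHSCs, its log2 fold change being -3.91 (SE 0.69, limma adjusted p = 0.000793). The 2 higher hypHSC values were those of hypHSC 1 and 5. In the GENCODE annotation, exons of *Gata6os* cover 12.5% of the exon bases of *Gata6*, and those of *Hand2os1* cover 19.8% of those of *Hand2*. In libraries without strand, reads of such longer noncoding RNAs can add to the count of the factor. The entries of the deposited table share 59 bases for *Gata6* and *Gata6os* and 0 for *Hand2* and *Hand2os1*. *Wt1os* was too low to be tested, with a mean of 4.47 normalized counts in hypHSCs and 0.944 in qHSCs.

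**Figure D3:**
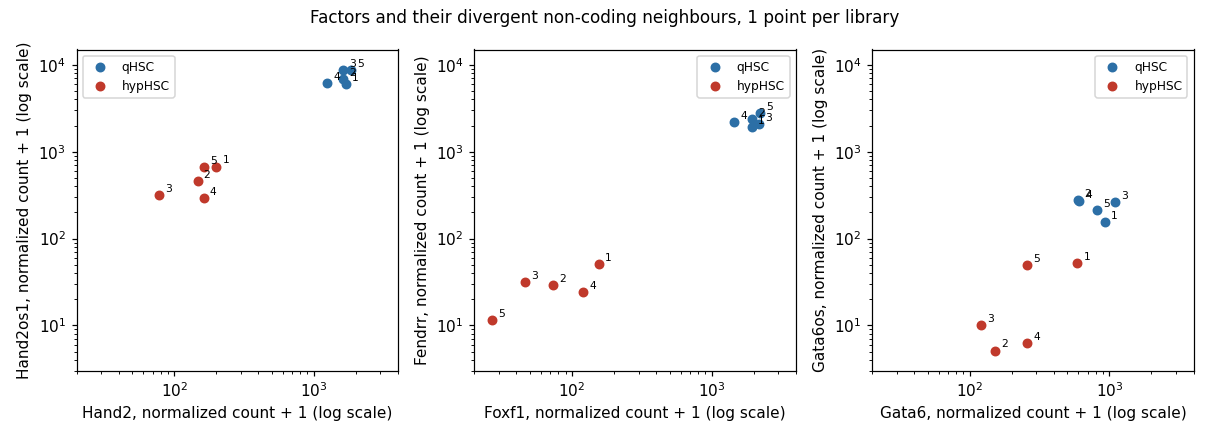
Normalized count + 1 of *Hand2*, *Foxf1* and *Gata6* (horizontal log axis) against that of the divergent noncoding neighbour (vertical log axis), 1 point per library, numbered by replicate. In each panel the 5 hypHSC points lie to the left of and below the 5 qHSC points.

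Relatives of the factors within their families were mostly too low to be tested. Of 24 relatives, 6 passed the filter, of which 4 fell, 0 rose and 2 were not DEGs, with a median log2 fold change of -3.55. The shares over all tested genes were 21.7% lower and 17.8% higher. *Tcf23* went from 155 to 277 normalized counts in qHSCs to 0 to 8.09 in hypHSCs, where 4 libraries had no read (log2 fold change -7.09, SE 0.69). Since *Tcf23* passed the filter only through the qHSC libraries, its direction was fixed. *Msc*, musculin, the closest relative of *Tcf21*, fell by 4.94 on the log2 scale (SE 0.85). *Meis2* held 596 to 935 normalized counts in qHSCs and 146, 72.5, 96.5, 8.39 and 4.54 in hypHSCs, with hypHSC 4 and 5 the lowest (log2 fold change -4.47, SE 0.84). *Ets2*, at 1516 ± 345 in qHSCs and 897 ± 226 in hypHSCs, had a log2 fold change of -0.76 and *Meis3* one of -0.11, and neither was a DEG. *Tcf24*, the fourth relative that fell, had a log2 fold change of -2.64.

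Ratios of a factor to its relative in the same library were compared for 5 pairs, and their p-values are not adjusted for this number. *Ets1* changed relative to *Ets2*, with a mean log2 ratio of -2.27 in qHSCs and -7.17 in hypHSCs, a difference of -4.90 (exact two-sided permutation test, p = 0.00794, the smallest that 5 libraries against 5 allow), or -5.32 with an added count of 0.5 and -3.84 with 5. No difference was detected between *Meis1* and *Meis2* (1.01, p = 0.437), between *Tcf21* and *Msc* (0.70, p = 0.825) or between *Prrx1* and *Prrx2* (1.20, p = 0.452) by the same exact test. The SD of these ratios in hypHSCs was 2.25 to 2.96, so a difference of several units could have been missed. *Foxf2* and *Lhx9* had no library above 3 reads and were not compared.

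Of the cofactors through which these factors act, more fell than rose. Of 25 listed, 21 were tested, 11 fell, 3 rose and 7 were not DEGs, with a median log2 fold change of -1.36. Over all tested genes 21.7% were lower and 17.8% higher, so the part of the cofactors that rose was no larger than that of all genes. *Ldb2*, an adaptor that binds LIM homeodomain proteins such as Lhx2, fell from 1856 ± 507 to 17.3 ± 14.8 normalized counts (log2 fold change -7.33, SE 0.83). *Zfpm2*, the GATA cofactor FOG2, fell from 358 ± 92.5 to 31.3 ± 15.7 (-3.66, SE 0.48), and *Pknox2*, of the same homeodomain class as Meis1, fell from 398 ± 197 to 41.6 ± 35.4 (-4.05, SE 1.04). *Basp1*, a corepressor of Wt1, rose from 100.3 ± 49.0 to 2894 ± 1392 (4.83, SE 0.42). *Id1*, which sequesters helix-loop-helix partners, had a log2 fold change of 0.92 and *Tcf12*, such a partner, one of 0.61, and neither was a DEG. The other cofactors that rose, named after their values were seen, were *Id2*, from 4938 ± 1233 to 47383 ± 6136 normalized counts (3.30, SE 0.21), and the LIM-only gene *Lmo2*, from 142 ± 55.2 to 1572 ± 647 (3.45, SE 0.34).

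Other transcription factors of mesenchyme fell with the lineage factors in most cases. Of 36 listed, 19 were tested, 14 fell, 1 rose and 4 were not DEGs, where 21.7% of all tested genes were lower and 17.8% higher. The median log2 fold change was -3.17, or -2.99 with *Twist1* at its lower bound, since it was at the floor in all hypHSC libraries. *Twist1* passed the filter only through the qHSC libraries, so its direction was fixed. *Heyl*, a Notch target, held 4079 to 5851 normalized counts in qHSCs and 248, 182, 388, 18.9 and 0 in hypHSCs (log2 fold change -6.59, SE 1.36). *Foxs1* (-4.74), *Snai1* (-4.33) and *Tbx20* (-4.15) fell as well, each without a read in hypHSC 5. *Zeb2*, the most abundant of the list, went from 11795 ± 859 to 6195 ± 1522, a log2 fold change of -0.96 that stayed short of the threshold, and *Meox1*, at 1.64 (limma adjusted p = 0.0581), was not a DEG. The one that rose was *Gli1*, the effector of hedgehog signalling, from 5.16 ± 2.69 to 70.6 ± 16.7 normalized counts (3.61, SE 0.48), which is also a marker in the portal fibroblast list. Since *Gli1* passed the filter only through the hypHSC libraries, its direction was fixed.

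Transcription factors of myeloid cells were listed for contrast. Of 20, all tested, 14 rose, 1 fell and 5 were not DEGs, with a median log2 fold change of 2.85, where 17.8% of all tested genes were higher and 21.7% lower. *Bhlhe41* held 28.1 to 45.7 normalized counts in qHSCs and 3231, 5883, 5266, 12107 and 25995 in hypHSCs (log2 fold change 7.69, SE 0.48). *Spi1*, the factor PU.1, rose from 43.4 ± 61.9 to 1041 ± 318 (5.38, SE 0.68), *Runx1* from 1.68 ± 1.59 to 94.3 ± 51.0 (5.26, SE 0.65) and *Tfec* from 28.2 ± 35.7 to 393.5 ± 25.3 (4.86, SE 0.85). *Runx1* passed the filter only through the hypHSC libraries, so its direction was fixed. *Bhlhe40* (0.26) and *Maf* (0.85) were not DEGs. The single one that fell was *Id3*, which is also in the cofactor list.

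**Figure D4:**
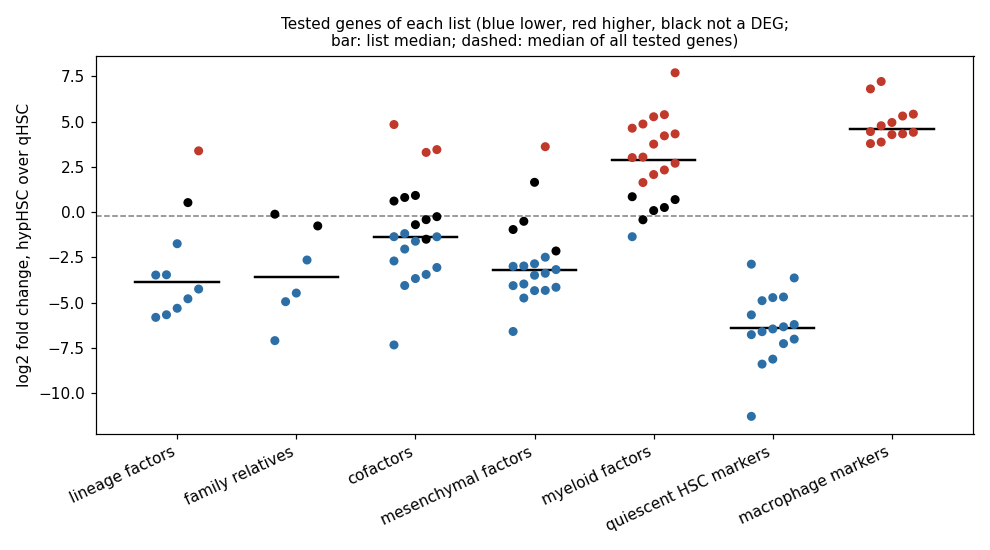
Log2 fold change, hypHSC over qHSC, of every tested gene of 7 lists, with a bar at the median of the list and a dashed line at the median of all tested genes (-0.20). The medians of the lineage factors (-3.86), family relatives (-3.55), cofactors (-1.36) and mesenchymal factors (-3.17) lie below that line, those of the myeloid factors (2.85) and macrophage markers (4.61) above it, and that of the quiescent HSC markers (-6.39) is the lowest.

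Markers of other liver cells were counted in the same libraries. Of 11 sinusoidal endothelial markers tested, 4 were higher and 3 lower. Of 12 hepatocyte markers, 0 were DEGs (12 not called), and their sum ranged from 17773 to 255975 normalized counts in hypHSCs and from 34926 to 139834 in qHSCs. Portal fibroblast markers were higher in 4 of 6 tested and lower in 0, smooth muscle markers were lower in 4 of 6, cholangiocyte markers were higher in 5 of 5, and 1 of 4 T and NK cell markers tested was higher. Over all tested genes 21.7% were lower and 17.8% higher. *Gli1*, of the portal fibroblast list, and *Krt19*, of the cholangiocyte list, passed the filter only through the hypHSC libraries, so their direction was fixed. The smooth muscle list shares *Des* and *Rgs5* with the quiescent HSC list. The cholangiocyte list shares *Spp1* with the activated HSC list, and *Spp1* made up 278620 of its sum of 281649 normalized counts in hypHSC 1. Of 10 markers of activated HSCs, 3 were higher and 2 lower. Their part in the values of the lineage factors was not tested.

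Because the stellate markers themselves fell, the factors were also expressed per stellate transcript of the same library, a choice made after the values were seen. Per summed quiescent HSC markers, 5 factors were higher in hypHSCs without overlap, namely *Hand2* by 2.03 on the log2 scale, *Meis1* by 2.05, *Gata6* by 3.76, *Wt1* by 6.03 and *Prrx1* by 8.89 (exact two-sided permutation test, p = 0.00794 for each). The other 5 overlapped between the groups on this scale, with differences of -0.30 for *Lhx2*, -0.16 for *Ets1*, 0.20 for *Gata4*, 0.72 for *Foxf1* and 1.26 for *Tcf21*, and exact p from 0.119 to 0.889. *Dcn* alone made up 47.7% to 75.6% of the marker sum in hypHSCs and 31.3% to 38.5% in qHSCs. *Ecm1* had a higher mean than *Dcn* in qHSCs, 753807 against 674922 normalized counts. In hypHSCs it had a lower one, 6521 against 26713, so the make-up of the sum differed between the groups. The direction of 6 factors, *Hand2*, *Gata4*, *Gata6*, *Tcf21*, *Foxf1* and *Meis1*, thus turned with this denominator. The marker sum itself fell, so dividing by it moved every gene up by the same amount, such as *Hand2* from -3.47 to 2.03. *Wt1* moved from 0.53 to 6.03. Any gene that fell less than the sum rises on this scale, the median of all tested genes (-0.20) included. The share of all tested genes that rise was not computed, so these p-values show nothing particular to the factors.

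Per summed collagen transcripts *Col1a2* and *Col3a1*, neither of which was a DEG, the directions were those of the deposited scaling. Dividing by this sum also moved every gene up by the same amount, such as *Lhx2* from -5.81 to -5.38. Only a gene with a fall smaller than that shift could turn. The smallest fall of the factors was -1.74 (*Gata6*), so the unchanged directions are no separate evidence. The log2 difference was -5.38 for *Lhx2*, -5.24 for *Ets1*, -4.88 for *Gata4*, -4.36 for *Foxf1*, -3.82 for *Tcf21*, -3.05 for *Hand2* and -3.03 for *Meis1*, and it was 3.81 for *Prrx1*, all without overlap (exact two-sided permutation test, p = 0.00794 for each). *Gata6* overlapped on this scale, with a difference of -1.32 (exact p = 0.0397), and so did *Wt1*, with 0.95 (exact p = 0.119). On the deposited scaling 39.5% of all tested genes did not overlap. That share was not computed per collagen transcript, so these p-values show nothing particular to the factors. The collagens themselves ranged widely, from 3116 to 15703 normalized counts of *Col1a2* in hypHSCs and from 4341 to 10824 in qHSCs.

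**Figure D5:**
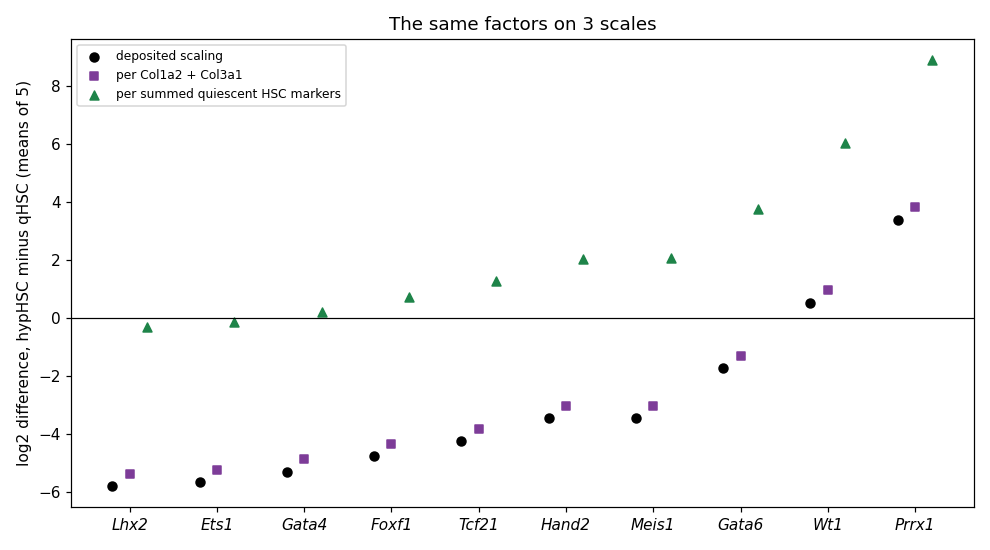
Log2 difference of the group means, hypHSC minus qHSC (n = 5 each), of each factor on 3 scales, the deposited scaling (circles), per *Col1a2* and *Col3a1* (squares) and per summed quiescent HSC markers (triangles). Circles and squares lie below 0 for 8 factors, while triangles lie above 0 for 8 factors and just below it for *Lhx2* (-0.30) and *Ets1* (-0.16).

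The genes whose values over the 10 libraries were most like those of *Lhx2* were *Jam3*, *Fhl1*, *Ston1*, *Tshz2* and *Abi3bp*, with Pearson's r of log2 values of 0.998, 0.997, 0.996, 0.996 and 0.995. These are descriptions over 10 libraries that fall into 2 separate groups, so any gene that separates the groups has a high r. Among the other lineage factors, r with *Lhx2* was 0.976 for *Tcf21*, 0.967 for *Hand2*, 0.965 for *Meis1*, 0.957 for *Foxf1*, 0.940 for *Ets1*, 0.934 for *Gata4* and 0.833 for *Gata6*. *Tcf21*, the nearest of them, was at place 223 of the 14625 genes compared. *Wt1* had an r of -0.49 and *Prrx1* one of -0.78.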

How the data were processed

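Each of 5 hypHSC and 5 qHSC preparations was measured as 1 RNA-seq library, reverse-transcribed from poly(A) tails, amplified and sequenced without strand. The authors mapped reads to mm39 (GRCm39) with STAR 2.7.5a, counted them with featureCounts (Subread 1.5.0), and deposited a signal per gene, the count divided by the DESeq2 size factor of the library, per the study's methods and the submitters' processing notes. Of 62322 rows, 25233 carry a symbol. Multiplying by recovered size factors gave whole reads for at least 99.998% of values (tolerance 0.0051), and these reads served for depth, FPKM (GENCODE exon lengths) and the count tests DESeq2 1.42.0 and edgeR 4.0.16, which ran as alternatives.

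Genes with at least 10 normalized counts in 5 of 10 libraries were tested by limma 3.58.1 (R 4.3.3, intensity trend) on log2(normalized count + 1), a scale on which the change of genes with libraries near 0 depends on the added count, with Benjamini-Hochberg adjustment. Exact two-sided permutation tests used the 252 arrangements of the libraries. Limits from 3 reads cover counting error only, since amplified reads are not independent molecules. The members and lists were chosen with earlier results of these data known. Named genes were the 10 factors, both genes of each pair and, per list, up to 4 DEGs without overlap with the largest change and 2 abundant genes that were not DEGs. Groups came from the labels. The fit was tested on simulated data. Alternatives changed the added count, filter, scaling, tool, robust fit, replicate block or libraries used.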

Additional observations from a re-analysis of the deposited data

Results flagged for a closer look

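*Lhx2* in qHSC 4 stood apart from the other qHSC libraries. It held 1103 normalized counts there, against 1467 to 1611 in the other 4, and the gap to the nearest library took 0.752 of the range of the group. Chance marks about 1 group in 20 in this way. Without qHSC 4 *Lhx2* remained a DEG, and its log2 fold change stayed between -6.08 and -5.48 whichever library was left out. The same library was also the lowest of the qHSCs for *Hand2*, *Foxf1*, *Meis1* and *Wt1*, though not by a gap of that size.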

How the results depend on the processing

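With each library left out in turn, 9 of the 10 factors were DEGs in every fit (lowest 9, highest 9), 8 lower (8 to 8) and 1 higher (1 to 1), while the DEGs over all genes numbered 5241 to 5914. Over 25 alternatives the calls of the 10 factors stayed as they were, with 24 for *Prrx1*, which was lost where a mean of 100 normalized counts was required, so that 0 factors were higher there. Including rows without a symbol raised the DEGs over all genes from 5779 to 9291, as 24320 entries were then tested. Scaling to equal totals moved the log2 fold changes of the factors by -0.35 to -0.22 (2022 higher and 4225 lower DEGs over all genes), to equal upper quartiles by 0.05 to 0.12, and on 3 reference genes by -0.94 to -0.83 (1472 higher and 6990 lower), against 2602 and 3177. On the latter scale *Wt1* was at -0.40, less than that shift. The low factors moved with the added count, from -5.73 (0.5 added) to -4.19 (5 added) for *Gata4*, from -6.08 to -4.59 for *Ets1* and from 3.56 to 2.63 for *Prrx1*. DESeq2 gave 5861 DEGs (3014 higher and 2847 lower) and edgeR 5336 (2786 and 2550).

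Per summed quiescent HSC markers, *Hand2* (2.03), *Gata4* (0.20), *Gata6* (3.76), *Tcf21* (1.26), *Foxf1* (0.72) and *Meis1* (2.05) changed direction. On that scale any gene does so that fell less than the marker sum. With 1 library left out in turn, the difference in the log2 ratio of *Tcf21* to *Msc* ran from -0.55, without hypHSC 2, the library without a read of *Msc*, to 1.28. The replicate block gave 5786 DEGs and the same calls for the factors. Same-numbered libraries did not deviate together (correlations 0.00815 to 0.129), so the numbers were not taken as a pairing. Under the replicate block the exact p of the ratio of *Gata4* to *Gata6* was 0.125 and that of *Ets1* to *Ets2* 0.0625, the smallest that 5 pairs allow. Depth limits *Gata4*, *Ets1* and *Prrx1*, which had libraries at 3 reads or fewer.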

Other observations

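Some relatives of the lineage factors that were too low for the test still differed in where their few reads lay, and they are given after their values were seen. *Gata5* held 3.42 to 38.01 normalized counts in the qHSC libraries and 0 in all 5 hypHSC libraries. *Gata3* was the reverse, with 8.32 to 27.2 in hypHSCs and 0 in all 5 qHSC libraries. *Gata2* was found in 1 hypHSC library (18.15) and in 2 qHSC libraries (2.36 and 6.85). *Prrx2*, the relative of *Prrx1*, held 52.5, 16.6, 11.6, 0 and 0 in hypHSCs and reads in only 1 qHSC library (5.13). Of the relatives of *Lhx2*, *Lhx6* held 2.56 to 15.7 in the qHSC libraries and 0 in all 5 hypHSC libraries. *Lhx4* held 46.6 in hypHSC 2 and 0 in every other library. A count of 0 allows up to 2.49 to 4.54 normalized counts in hypHSCs and 2.25 to 2.72 in qHSCs, so that no level was read from these zeros.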
